A study of Mus musculus with 62 samples.

Results

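A set of 10 genes that move cholesterol between and within brain cells was followed through the mouse hippocampus and a hippocampal cell line. The genes were chosen by function, with no measured value in the rule but with earlier results of these data known: Apoe, Abca1, Abcg1, Lrp1, Ch25h, Soat1, Npc1, Cyp46a1, Nr1h2 and Nr1h3. They are 10 of the 53975 gene identifiers in the deposited tables, and each had 1 identifier. The hippocampus libraries came from APP NL-G-F mice (called APP here), a line in which the App gene itself carries mutations that drive amyloid deposition, and from C57BL/6J mice as wild type (WT). Both genotypes were sampled at 3, 6 and 12 months, with 3 mice in each group and 2 in the WT group at 3 months, and each library came from the left and right hippocampus of 1 mouse together. HT-22, a mouse hippocampal line, was used at passage 4. It received a locked nucleic acid (LNA) against Hsf1 at 150 nM, or a scrambled LNA that the labels give as 50 uM, for 24 h, and then 30 uM of either amyloid beta peptide (Abeta42) or a control peptide with the reversed amino acid order, both dissolved in DMSO. The scramble groups held 4 libraries each and the anti-Hsf1 groups 3 each. The labels do not say whether the HT-22 replicates were separate cultures, so their p-values measure only the spread between these libraries, which may be technical.

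Cholesterol does not cross from blood into brain in useful amounts, so the tissue makes and recycles its own. Astrocytes, and microglia when activated, secrete apolipoprotein E. The transporters Abca1 and Abcg1 load it with cholesterol, and cells take up the particles through receptors such as Lrp1. Cholesterol from taken-up particles leaves the lysosome through Npc1, is stored as esters by Soat1, or is turned into oxysterols by Cyp46a1 in neurons and by Ch25h in immune cells. Oxysterols in turn activate the liver X receptors, Nr1h3 (LXR alpha) and Nr1h2 (LXR beta), whose known targets include Apoe, Abca1 and Abcg1.

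Values are TPM, the share of a library's transcripts that each gene takes after correction for gene length. They were further scaled by 1 factor per library (scaled TPM), so that the median ratio of genes to their average level was the same in each library. The factors spanned 0.688 to 1.46 in the hippocampus and 0.639 to 1.23 in HT-22 cells. At 6 months they were 1.12 to 1.46 in APP and 0.688 to 0.836 in WT. With Abeta42 they were 0.639 to 0.855 with anti-Hsf1 and 1.12 to 1.23 with scramble. They also did not overlap between genotypes at 3 months, between APP at 12 and 6 months, or between peptides in anti-Hsf1 cells. In these comparisons the part of the scaling cannot be told apart from that of the groups. A pair of properties of the libraries bear on every comparison below. Xist was between 70.6 and 137 scaled TPM in all APP and all WT 3-month libraries and at most 0.52 in the WT 6- and 12-month libraries, where Ddx3y was between 18.8 and 28.2. Genotype at 6 and 12 months therefore cannot be told apart from the presence of Y-linked transcripts. The genotype comparison at 3 months, the age comparisons in the APP line and WT at 12 against 6 months do not mix the 2 kinds. WT at 3 months beside WT at 6 or 12 months does mix them. Differences of WT values between these ages therefore cannot be told apart from the presence of Y-linked transcripts. The genotype by age comparison sets an age change in libraries with Xist beside one in libraries with Y-linked transcripts. Some libraries also stood apart from their group. APP 3 months replicate 1 had 88.0 scaled TPM of the neuronal gene Slc17a7 (at least 269 in the other 16). APP 6 months replicate 2 had 27.4 of the choroid plexus gene Ttr (at least 398 in the others), with 8.90 of Cst7, a gene of plaque-associated microglia. In HT-22 cells, Abeta42 scramble replicates 3 and 4 and reverse scramble replicate 4 had 53.3 to 54.9 of Tmem119 (at most 13.9 in the other 11). Hsf1, the target of the LNA, lay between 43.3 and 51.4 with Abeta42 and anti-Hsf1 against 49.0 to 71.3 with Abeta42 and scramble. With the reverse peptide it lay between 43.1 and 52.6 against 43.2 to 61.9, so the anti-Hsf1 and scramble ranges of Hsf1 overlapped under both peptides.

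In the hippocampus the 10 genes covered a very wide range of levels. Median scaled TPM over the 17 libraries was 328 for Apoe, 66.2 for Lrp1, 41.6 for Cyp46a1, 23.1 for Abcg1 and 20.5 for Npc1. It was 15.1 for Nr1h2, 13.0 for Soat1, 11.7 for Abca1, 1.14 for Nr1h3 and 0.287 for Ch25h. Apoe exceeded Lrp1, Lrp1 exceeded Cyp46a1, and Cyp46a1 exceeded Abcg1 in 17 of 17 libraries, as did Abca1 over Nr1h3. The middle of the order was not separated: Abcg1 exceeded Npc1 in 11 of 17 libraries, Nr1h2 exceeded Soat1 in 13, and Soat1 exceeded Abca1 in 12. The coefficient of variation over all 17 libraries was lowest for Npc1 (9.64%) and Abcg1 (12.0%) and reached 37.2% for Apoe, 44.7% for Nr1h3 and 85.0% for Ch25h. Mean coverage per base, the measure of depth the tables give, was 103 to 350 for Apoe but 0.635 to 1.93 for Nr1h3 and 0.0948 to 1.83 for Ch25h, so the values of these 2 are the least precise.

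**Figure D1:**
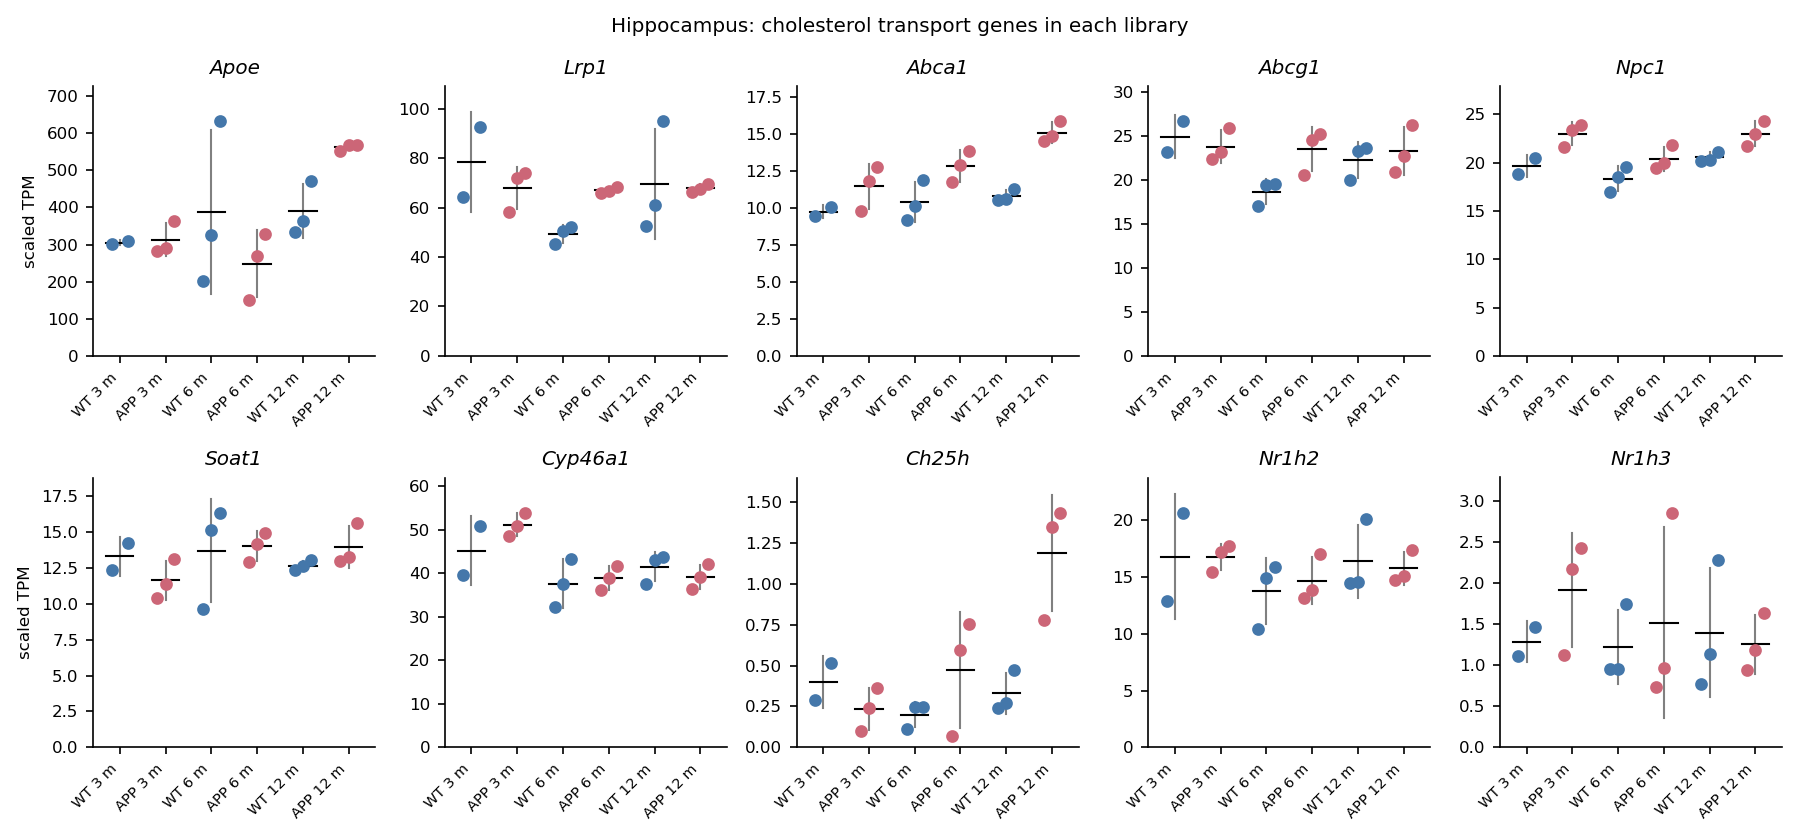
Scaled TPM (vertical axes, from 0) of the 10 genes in the 17 hippocampus libraries, by genotype and age; points are libraries, black bars group means and grey lines 1 SD. The 3 APP 12-month libraries lie above the 3 WT 12-month libraries for Apoe, Abca1, Npc1 and Ch25h, and 1 WT 6-month library has the highest Apoe value of all.

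None of the 10 genes passed the test in any comparison. The test was limma on log2(scaled TPM + 1), with p-values adjusted by the Benjamini-Hochberg method over the 17840 genes whose TPM averaged at least 1 across the libraries. Of the 10 genes 9 entered it, and Ch25h fell below that level. APP against WT called 0 of 9 at 3 months, where 0.303% of all genes were called, 0 of 9 at 6 months (1.66% of all genes) and 0 of 9 at 12 months (0.443%). At an unadjusted p below 0.05 the counts were 1, 3 and 1 of 9, against 2385, 3029 and 1255 of all genes. Within the APP line, 12 against 3 months called 0 of 9 (3.28% of all genes) and 12 against 6 months 0 of 9 (0.538%), with 3 and 1 at an unadjusted p below 0.05, against 2933 and 2026 of all genes. WT at 12 against 6 months called 0 of 9, where 0% of all genes were called, and 1 of the 9 was below an unadjusted 0.05, as were 1218 of all genes. The difference between the 2 genotypes in the change from 6 to 12 months called 0 of 9 (0.0224% of all genes), with 1 below 0.05 unadjusted against 1816 of all genes. Leaving out the libraries that stood apart, an alternative chosen after seeing the data, also called none of the 10 in any of the 7 hippocampus comparisons.

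The median log2 difference of the 9 genes between APP and WT was 0.03 at 3 months, 0.11 at 6 months and 0.06 at 12 months, where that of all genes was 0.00 at each age. Complete separation of the libraries of 2 small groups was common in these data. At 3 months it was seen for 1 of the 9 genes (27.1% of all genes), at 6 months for 2 (21.2%) and at 12 months for 3 (15.6%). In the APP line it was seen for 3 of 9 at 12 against 3 months (22.0% of all genes) and for 2 of 9 at 12 against 6 months (20.0%). WT at 12 against 6 months also separated 3 of 9, Abcg1, Npc1 and Lrp1 (12.2% of all genes). At 3 and 6 months the share of the 9 genes was near or below that of all genes.

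The ligand came first in level. Apoe lies on chromosome 7 (chr7:19696109-19699188, minus strand, GRCm38). In APP mice it was at 364, 283 and 291 scaled TPM at 3 months, 328, 268 and 149 at 6 months, and 568, 552 and 569 at 12 months. In WT mice it was at 309 and 301 at 3 months, 632, 327 and 203 at 6 months, and 334, 472 and 363 at 12 months. The 3 APP libraries at 12 months were therefore high and close together (562.8 ± 9.40, SD, n = 3), above all other libraries of the line, while the highest single value came from WT 6 months replicate 1. At 12 months Apoe in APP exceeded WT by a log2 difference of 0.55 (SE 0.33, 95% interval -0.15 to 1.24; limma adjusted p = 0.843), and the 2 groups did not overlap. At 6 months the difference was -0.56 (SE 0.33; adjusted p = 0.420), with overlapping groups and an SD of 221 in WT. It became -0.13 without WT 6 months replicate 1, -0.23 without APP 6 months replicate 3 and -0.94 without WT 6 months replicate 3. At 3 months it was 0.03 (SE 0.37; adjusted p = 0.991).

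The change of Apoe with age did not pass the test in either genotype, nor did the difference between them. In APP mice 12 months exceeded 6 months by 1.25 on the log2 scale (SE 0.33, 95% interval 0.55 to 1.95; fold 2.38; adjusted p = 0.124), and 3 months by 0.86 (SE 0.33; fold 1.81; adjusted p = 0.192). In WT mice 12 months differed from 6 months by 0.15 (SE 0.33; adjusted p = 0.961). The difference between these changes was 1.10 (SE 0.46; unadjusted p = 0.0309, limma adjusted p = 0.436). It became 0.67 without WT 6 months replicate 1, 1.49 without WT 6 months replicate 3 and 0.54 on the deposited TPM. Array weights, which give less weight to libraries that fit the model poorly, brought the APP 12 against 6 months comparison to an adjusted p of 0.0347, and a fit with the 2 APP groups alone brought 12 against 3 months to 0.0476. Leaving out WT 6 months replicate 3 turned the WT change to -0.24.

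**Figure D2:**
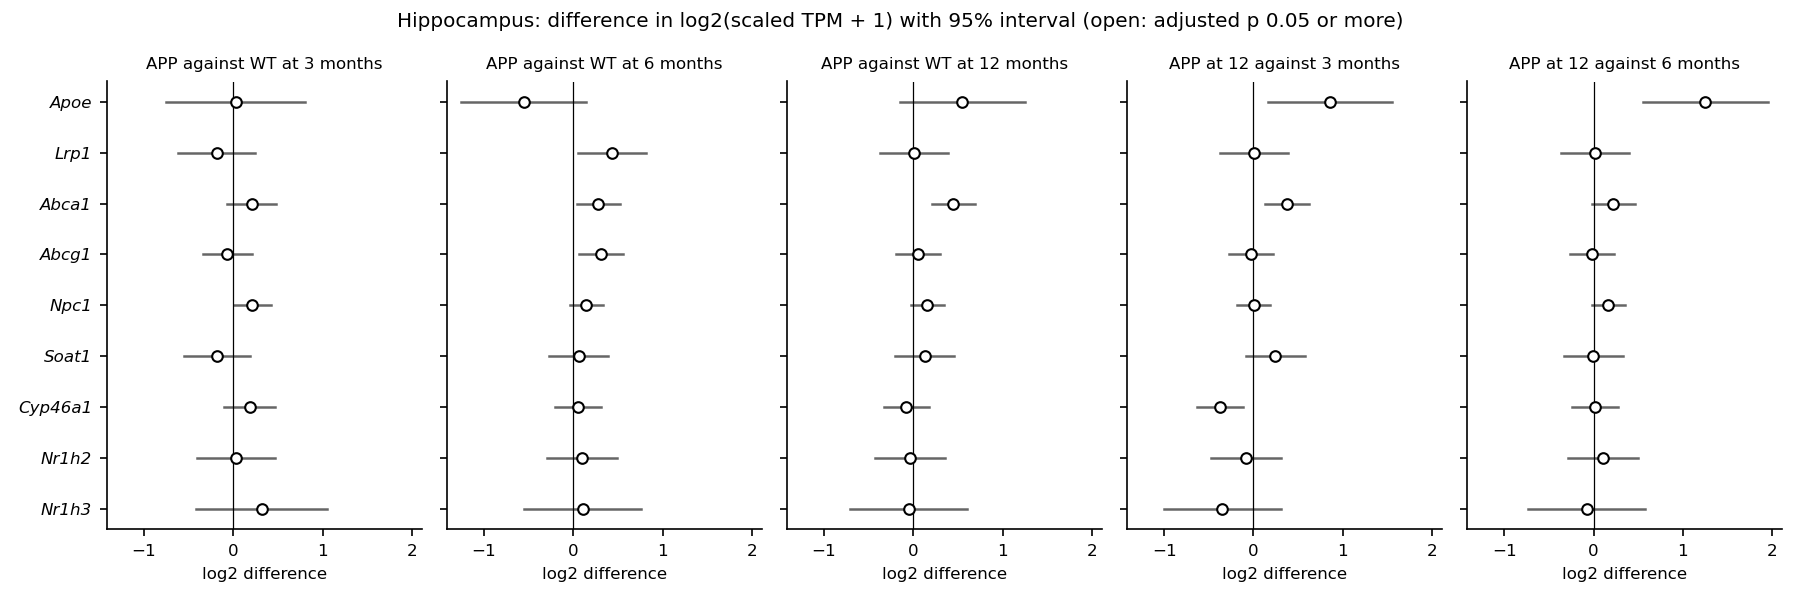
Difference in log2(scaled TPM + 1) (horizontal axes) for the 9 tested genes in 5 hippocampus comparisons; circles are limma estimates, lines their 95% intervals, and open circles an adjusted p of 0.05 or more. All circles are open; Apoe has the widest intervals, followed by Nr1h3, and Abca1 lies to the right of 0 in each panel.

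The receptor Lrp1 (chr10:127538161-127621148, minus strand), a large endocytic receptor of the low-density lipoprotein receptor family, stayed close to 1 level in the APP line from 6 to 12 months. It was at 73.9, 72.0 and 58.4 scaled TPM in APP mice at 3 months, 65.9, 66.7 and 68.5 at 6 months, and 69.6, 66.2 and 67.7 at 12 months. In WT mice it was at 92.8 and 64.3 at 3 months, 50.4, 45.3 and 52.2 at 6 months, and 52.7, 61.1 and 95.02 at 12 months. WT 6 months was thus the low group, and 2 single WT libraries were high. At 6 months Lrp1 was 0.44 higher in APP (SE 0.18; unadjusted p = 0.0272, limma adjusted p = 0.226), with no overlap. WT 12 months exceeded WT 6 months by 0.45 (SE 0.18; adjusted p = 0.719), and 0.20 when WT 12 months replicate 3 was left out. The ratio of Apoe to Lrp1, a ligand and 1 of its receptors, was 8.16 to 8.39 in the APP 12-month libraries, 2.18 to 4.98 in the other APP libraries, and 3.33 to 12.5 over all WT libraries.

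The exporter Abca1 (chr4:53030787-53159895, minus strand), which passes cholesterol and phospholipid to lipid-poor apolipoproteins, had the smallest p-value of the 10 between genotypes at 12 months. It was at 14.9, 15.9 and 14.5 scaled TPM in APP and at 11.3, 10.6 and 10.5 in WT mice of that age. In younger APP mice it was at 12.8, 11.8 and 9.80 at 3 months and 12.9, 13.9 and 11.7 at 6 months, and in WT mice at 10.1 and 9.44 and at 9.21, 10.2 and 11.9. The APP 12-month libraries were thus the 3 highest of all 17. The difference at 12 months was 0.45 on the log2 scale (SE 0.11, 95% interval 0.20 to 0.69; fold 1.36; unadjusted p = 0.00138, limma adjusted p = 0.157). It was 0.28 at 6 months (SE 0.11; adjusted p = 0.219) and 0.21 at 3 months (SE 0.13; adjusted p = 0.530). In APP mice 12 months exceeded 3 months by 0.38 (SE 0.11; adjusted p = 0.0934). With array weights Abca1 passed at 12 months (adjusted p = 0.0497) and in the APP line at 12 against 3 months (adjusted p = 0.0407). This was 1 of 15 alternative fits in each comparison. Leaving out single libraries gave log2 differences of 0.41 to 0.48 at 12 months (limma adjusted p from 0.306 to 0.471). At 12 against 3 months such fits gave 0.28 to 0.45 (adjusted p from 0.07 to 0.25). The genotype by age difference was 0.16 (SE 0.16; adjusted p = 0.782).

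Abcg1 (chr17:31057698-31115777, plus strand), which passes cholesterol to particles that already carry lipid, did not share that pattern. It was at 22.3, 25.9 and 23.1 scaled TPM in APP mice at 3 months, 25.3, 20.6 and 24.6 at 6 months, and 26.2, 20.9 and 22.7 at 12 months. In WT mice it was at 23.2 and 26.7, at 19.5, 17.02 and 19.5, and at 19.95, 23.6 and 23.3. The 3 WT 6-month libraries were the lowest of the 17, each at or below 19.53. At 6 months Abcg1 was 0.31 higher in APP (SE 0.12; unadjusted p = 0.0165, limma adjusted p = 0.178). At 12 months the 2 genotypes overlapped, with group means of 23.3 and 22.3. The ratio of Abca1 to Abcg1 was 0.567 to 0.760 in the APP 12-month libraries, 0.424 to 0.672 in the other APP libraries, and 0.354 to 0.609 over all WT libraries.

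The windows before the start sites of Apoe and Abca1, a pair whose APP 12-month libraries were the 3 highest of the line, are shown because both are known targets of the liver X receptors. Abcg1, another known target, has no window in the promoter table, and the APP 12-month libraries were the 3 highest of the line for Ch25h too. Each runs 5′ to 3′ on the gene's own strand over the 250 bases before the annotated start (RefSeq, GRCm38.p6), with CG dinucleotides in capitals. The Apoe window is chr7:19699189-19699438 and the Abca1 window chr4:53159896-53160145.
Apoe: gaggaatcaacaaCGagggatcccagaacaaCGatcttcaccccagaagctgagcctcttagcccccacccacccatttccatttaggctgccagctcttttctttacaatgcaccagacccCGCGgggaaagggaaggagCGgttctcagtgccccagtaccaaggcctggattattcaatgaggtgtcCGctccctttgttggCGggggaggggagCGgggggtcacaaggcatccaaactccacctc
Abca1: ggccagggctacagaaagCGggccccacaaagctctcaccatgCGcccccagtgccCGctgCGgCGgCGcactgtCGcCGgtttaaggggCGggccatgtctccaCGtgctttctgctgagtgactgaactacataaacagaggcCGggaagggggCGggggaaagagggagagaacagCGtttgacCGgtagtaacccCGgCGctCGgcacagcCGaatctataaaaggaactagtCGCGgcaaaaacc
The Apoe window holds 8 CG dinucleotides at 57.2% G and C, and 43.0% of the 32851 mouse windows of this length hold at least as many. The Abca1 window holds 20 at 61.6% G and C, which 17.9% of windows reach. The median window holds 6. Both lie above the median, and Apoe has 2 further annotated starts inside the gene, with 9 and 10. Of the 10 genes 8 had a window in this table. Cyp46a1 had 23, Lrp1 13, Nr1h2 13, Soat1 12, Ch25h 8 and Nr1h3 7 and 8 at its 2 starts. No factor binding or methylation was measured, so the letters are given as a description of the loci.

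Inside the cell, Npc1 and Soat1 handle cholesterol that has been taken up. Npc1 (chr18:12189693-12236400, minus strand) carries it out of the lysosome. Its values spanned 16.96 to 24.3 scaled TPM over the 17 libraries, the narrowest relative spread of the 10. At 12 months it was at 24.3, 22.9 and 21.8 in APP and 20.2, 20.3 and 21.1 in WT, so that the groups did not overlap. The difference was 0.15 on the log2 scale (SE 0.09; limma adjusted p = 0.814). At 3 months it was at 23.9, 21.6 and 23.4 in APP against 18.8 and 20.5 in WT, a difference of 0.22 (SE 0.10; unadjusted p = 0.0417, adjusted p = 0.349). The gene overlaps Rmc1 and Gm15956 on the other strand.

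Soat1 (chr1:156424525-156474331, minus strand), which esterifies cholesterol for storage, spanned 9.62 to 16.3 scaled TPM. Its lowest and highest libraries were both in the WT 6-month group (9.62, 16.3 and 15.1). At 12 months the APP libraries were at 13.3, 15.6 and 13.0 and the WT libraries at 12.6, 12.3 and 13.0. In the 3-month APP libraries Soat1 was at 11.4, 13.1 and 10.4, against 12.4 and 14.2 in WT. Its groups overlapped in all 3 genotype comparisons.

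The 2 oxysterol enzymes stood at opposite ends in level. Cyp46a1 (chr12:108334381-108362234, plus strand) makes 24-hydroxycholesterol in neurons, the form in which the brain exports most of its cholesterol. It was at 53.9, 50.9 and 48.5 scaled TPM in APP mice at 3 months, 41.6, 36.1 and 38.9 at 6 months, and 42.0, 39.1 and 36.4 at 12 months. The 3-month libraries were thus the high ones of the APP line. In WT mice it was at 39.6 and 50.7, at 37.4, 32.1 and 43.2, and at 37.6, 42.9 and 43.7. APP 12 months was below APP 3 months by a log2 value of -0.38 (SE 0.12, 95% interval -0.63 to -0.12; fold 0.771; unadjusted p = 0.00702, limma adjusted p = 0.114). It is the only one of the 10 whose APP 12-month libraries all lay below the APP 3-month libraries. The summed level of 6 neuronal markers was 1365 to 2017 in the APP 3-month libraries and 1689 to 1751 in the APP 12-month libraries, and none of the 6 was called. That of 6 oligodendrocyte markers was 1487 to 2447 against 1052 to 1179, with 5 of 6 called lower (1 of 6 without the libraries that stood apart). Their part in the Cyp46a1 value was not tested.

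Ch25h (chr19:34473786-34475135, minus strand) makes 25-hydroxycholesterol and is known as a gene that activated macrophages and microglia switch on. It was at 0.360, 0.240 and 0.1 scaled TPM in APP mice at 3 months, 0.0708, 0.752 and 0.595 at 6 months, and 1.34, 1.43 and 0.780 at 12 months. In WT mice it was at 0.287 and 0.514, at 0.111, 0.246 and 0.244, and at 0.273, 0.475 and 0.242. The 3 APP 12-month libraries were the 3 highest of the 17. Ch25h was tested only without the filter on low values. It then exceeded WT at 12 months by 0.71 on the log2 scale (SE 0.19; limma adjusted p = 0.225) and APP 3 months by 0.82 (SE 0.19; adjusted p = 0.0492). These differences, taken on log2(scaled TPM + 1), understate the change of a gene this low. Coverage of Ch25h was under 2 reads per base in every library. Gm26902 overlaps it on the other strand, and the kit named in the labels is not stated to mark strand, so reads of the 2 cannot be told apart. The same limit holds for Npc1, for Lrp1 (Gm16217 on the other strand) and for Soat1 (Gm37648 on the other strand). Abcg1 is overlapped by Gm25447 on its own strand.

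The 2 liver X receptors differed in level in every library. Nr1h2 (chr7:44549616-44553951, minus strand), the widely expressed LXR beta, spanned 10.4 to 20.6 scaled TPM. Nr1h3 (chr2:91184061-91202834, minus strand), the LXR alpha of liver and macrophages, spanned 0.730 to 2.86. Nr1h2 exceeded Nr1h3 by 4.85 to 25.9 times, with a median of 12.8. At 12 months Nr1h2 was at 17.4, 14.8 and 15.1 in APP and 14.5, 20.1 and 14.6 in WT. Nr1h3 was at 1.179, 0.941 and 1.64 in APP and 2.28, 0.777 and 1.14 in WT. Groups overlapped for both receptors at all 3 ages. The highest Nr1h3 value came from APP 6 months replicate 1, and the 95% interval of its 12-month genotype difference ran from -0.71 to 0.60. Gm13783, on the same strand, and Gm23390 overlap Nr1h3.

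A further 40 genes of sterol handling (apolipoproteins, receptors, transporters, lysosomal and oxysterol enzymes, nuclear receptors) were tested beside the 10, out of 44 listed. APP against WT called 1 of 40 at 12 months and 0 of 40 at 3 and at 6 months. Below an unadjusted 0.05 were 5, 9 and 7 of the 40, against 1255, 2385 and 3029 of all 17840 genes. Of all genes 0.443% were called at 12 months, 75 higher and 4 lower in APP. In the APP line 12 against 3 months called 4 of 40 (3.28% of all genes, 342 higher and 243 lower) and 12 against 6 months 1 of 40 (0.538%, 92 higher and 4 lower). The called sterol genes were all higher at 12 months. The median log2 difference of the 40 between genotypes was 0.07 at 3 months, 0.05 at 6 months and 0.12 at 12 months, where that of all genes was 0.00 at each age. Of the 40, 22, 24 and 32 lay above 0 at these ages, as did 50.5%, 50.1% and 48.9% of all genes. In WT at 12 against 6 months 21 of 40 lay above 0 (50.2% of all genes). WT at 12 against 6 months and the genotype by age comparison called 0 of 40. Below an unadjusted 0.05 were 5 and 3 of the 40, against 1218 and 1816 of all 17840 genes.

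Npc2, the soluble partner that hands cholesterol to Npc1 inside the lysosome, was the gene called at 12 months. It was at 25.5, 24.9 and 23.0 scaled TPM in APP and at 11.2, 15.0 and 14.4 in WT mice of 12 months, a difference of 0.82 (SE 0.17; fold 1.76; limma adjusted p = 0.0456). APP 12 months exceeded APP 6 months (13.4, 14.9 and 11.9) by 0.83 (SE 0.17; adjusted p = 0.0433) and APP 3 months (20.9, 13.8 and 12.3) by 0.65 (SE 0.17; adjusted p = 0.0487). The log2 difference of Npc1 in the first of these comparisons was 0.15 (SE 0.09). The Npc2 call at 12 months was lost when any 1 of the 6 libraries was left out, with adjusted p-values from 0.0853 to 0.246 and log2 differences from 0.70 to 0.89. Of 6 such fits each, 1 kept the Npc2 call at 12 against 6 months and 1 at 12 against 3 months. In APP mice at 12 against 3 months, Lpl (lipoprotein lipase) rose by 1.19 (SE 0.28; adjusted p = 0.0329), Mylip, which targets lipoprotein receptors for degradation and is a known target of the liver X receptors, by 0.69 (SE 0.15; adjusted p = 0.0254), and Scarb1, a receptor for high-density lipoprotein, by 0.59 (SE 0.15; adjusted p = 0.0412). Without APP 3 months replicate 1, the library low in neuronal transcripts, these became 0.91 (adjusted p = 0.112), 0.51 (adjusted p = 0.0773) and 0.44 (adjusted p = 0.132). Over the 6 fits that each left out 1 library, Lpl kept its call in 1, Mylip in 2 and Scarb1 in 2. Mean scaled TPM of Scarb1 was 5.94 and 9.38 in APP at 3 and 12 months, against 9.72 and 9.18 in WT. For Lpl it was 5.10 and 12.5 in APP, against 8.62 and 8.68 in WT. For Mylip it was 5.33 and 9.04 in APP, against 6.70 and 7.07 in WT. Each of these genes was thus lower in mean in APP than in WT at 3 months, and Scarb1 was close to WT at 12 months.

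**Figure D3:**
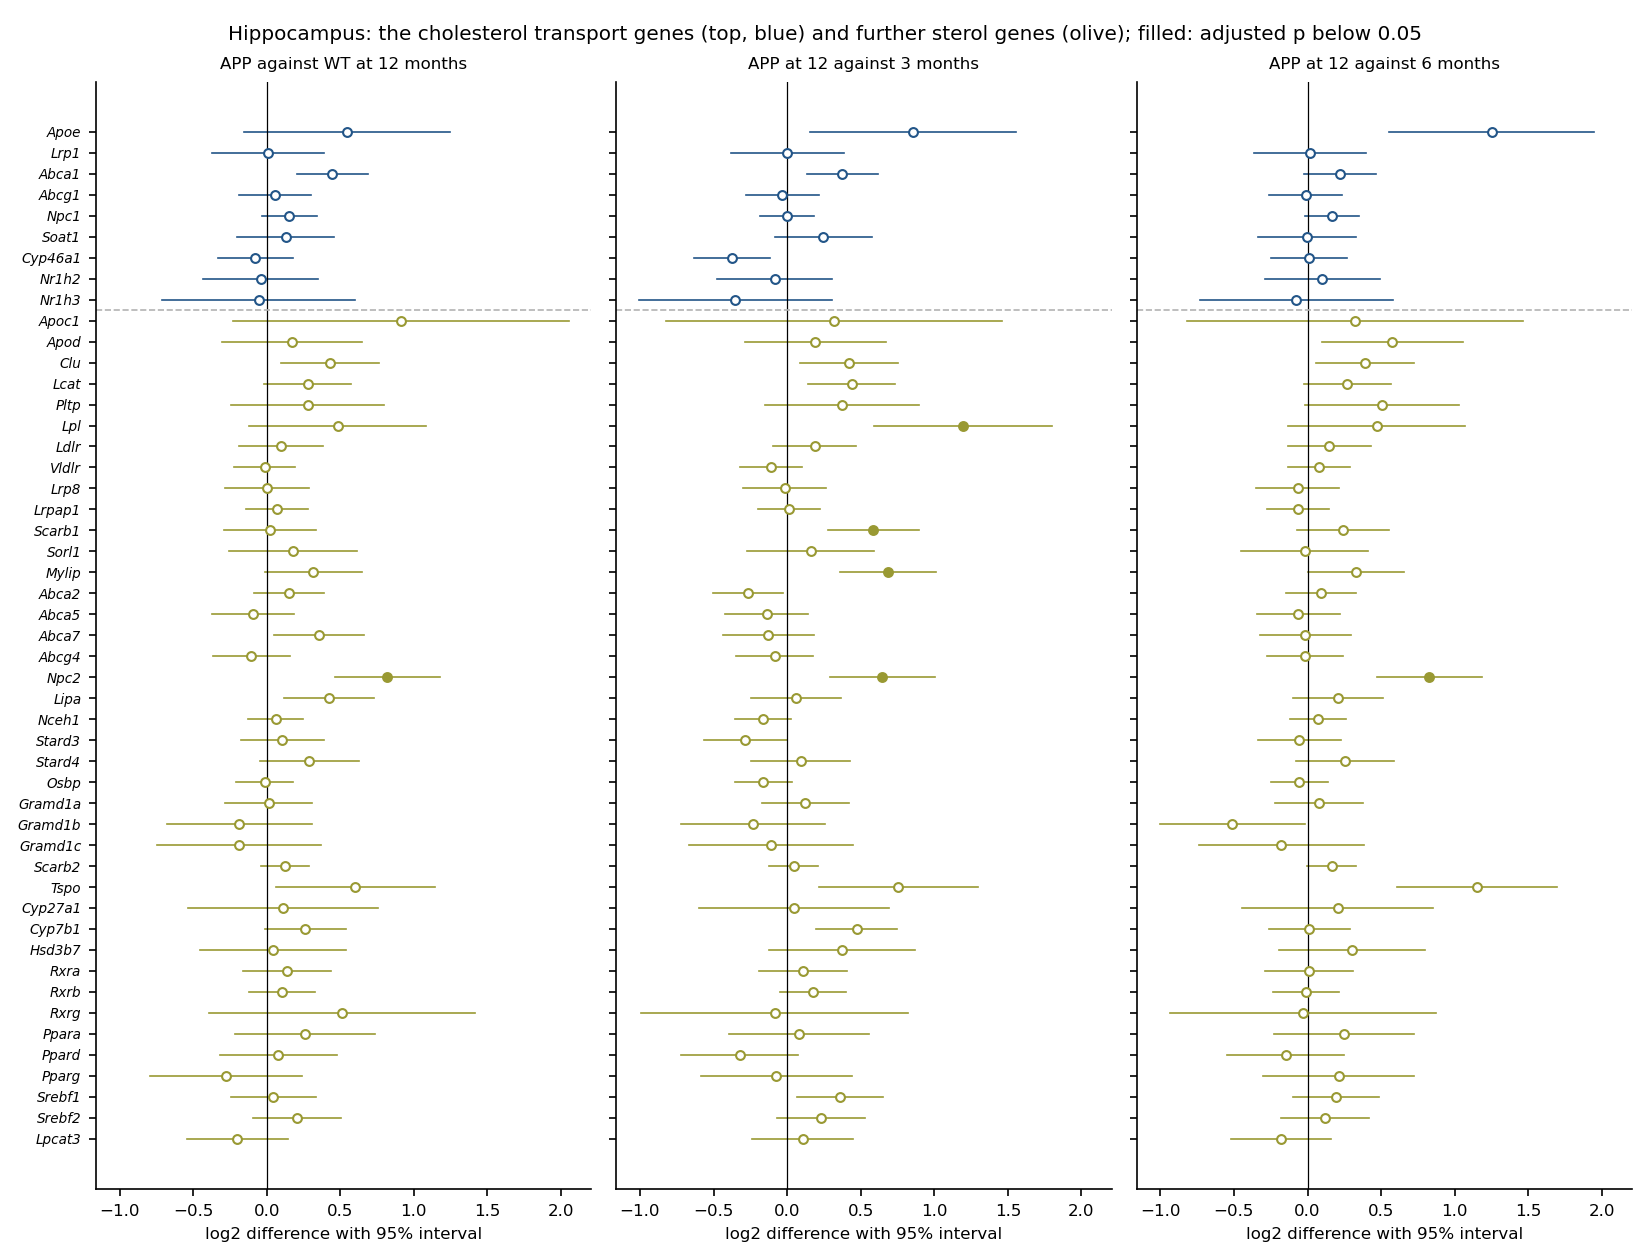
Difference in log2(scaled TPM + 1) with 95% intervals (horizontal axes) for the 9 tested genes of the set (blue, top) and 40 further sterol genes (olive) in 3 hippocampus comparisons; filled circles have a limma adjusted p below 0.05. Npc2 is filled in all 3 panels, Lpl, Scarb1 and Mylip in the middle one, and no gene of the set in any.

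Glial markers moved with these comparisons. At 12 months 5 of 6 markers of plaque-associated microglia were called higher in APP mice (6 of 6 without the libraries that stood apart), and their summed level was 110 to 164 scaled TPM in APP and 19.5 to 21.6 in WT. Of 6 general microglial markers 3 were called higher, with sums of 269 to 324 against 125 to 153. Of 6 astrocyte markers only Gfap was called (2 without those libraries), with sums of 1363 to 1532 against 1016 to 1063. The 6 choroid plexus markers summed to 1422 to 1643 in APP and 420 to 1299 in WT, with none called. At 12 against 6 months in APP mice, the choroid plexus sum was 1422 to 1643 against 35.7 to 902, and the plaque microglia sum 110 to 164 against 14.5 to 76.3. In that comparison 3 of 6 plaque-associated, 3 of 6 general microglial and 1 of 6 astrocyte markers were called higher. At 12 against 3 months in APP mice, where Lpl, Mylip, Scarb1 and Npc2 were called, so were 6 of 6 plaque-associated markers (sums of 110 to 164 against 11.4 to 18.6), 3 of 6 general microglial markers (269 to 324 against 114 to 123) and 1 of 6 astrocyte markers (1363 to 1532 against 751 to 935). The part of any of these in the values of Apoe, Abca1, Ch25h, Npc2, Lpl, Mylip and Scarb1 was not tested. In bulk tissue, a change in the number of cells of a type and a change in RNA per cell cannot be told apart.

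The genes whose level ran most like that of Apoe across the 17 libraries, among 11043 genes averaging a TPM of 5 or more, were Top1mt (Pearson r = 0.893), Ftl1 (0.882), Gm10335 (0.864), Aldh2 (0.859) and Gm10132 (0.854). For Abca1 they were Gpam (0.880), Tgfbr1 (0.868), Cflar (0.859), Pros1 (0.854) and Plek (0.838). For Cyp46a1 they were Rtl8a (0.913), Adcy8 (0.903), Rtl8b (0.895), Rasgef1b (0.889) and Ppm1l (0.888). The 3 sets share no gene. These are descriptions: the points are the same 17 libraries, which share group differences and scaling, and the highest of many values is high by choice.

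In HT-22 cells the machinery was present only in part. Median scaled TPM over the 14 libraries was 151 for Lrp1, 46.3 for Nr1h2, 32.2 for Soat1, 20.2 for Npc1, 7.15 for Apoe, 1.88 for Cyp46a1 and 0.234 for Abca1. Abcg1 and Ch25h were listed at 0 in all 14 libraries, and Nr1h3 in 8. Lrp1 exceeded Nr1h2, Soat1 exceeded Npc1, Npc1 exceeded Apoe and Apoe exceeded Cyp46a1 in 14 of 14 libraries, while Nr1h2 exceeded Soat1 in 11. Coverage of Apoe was only 1.04 to 4.87 reads per base. Of the defining neuronal markers, Snap25, Syt1, Rbfox3 and Nefl were listed at 0 in every HT-22 library, as were Aqp4 of astrocytes, and P2ry12 and C1qa of microglia. The line is labelled hippocampal, and these defining neuronal markers were at 0 in it.

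**Figure D4:**
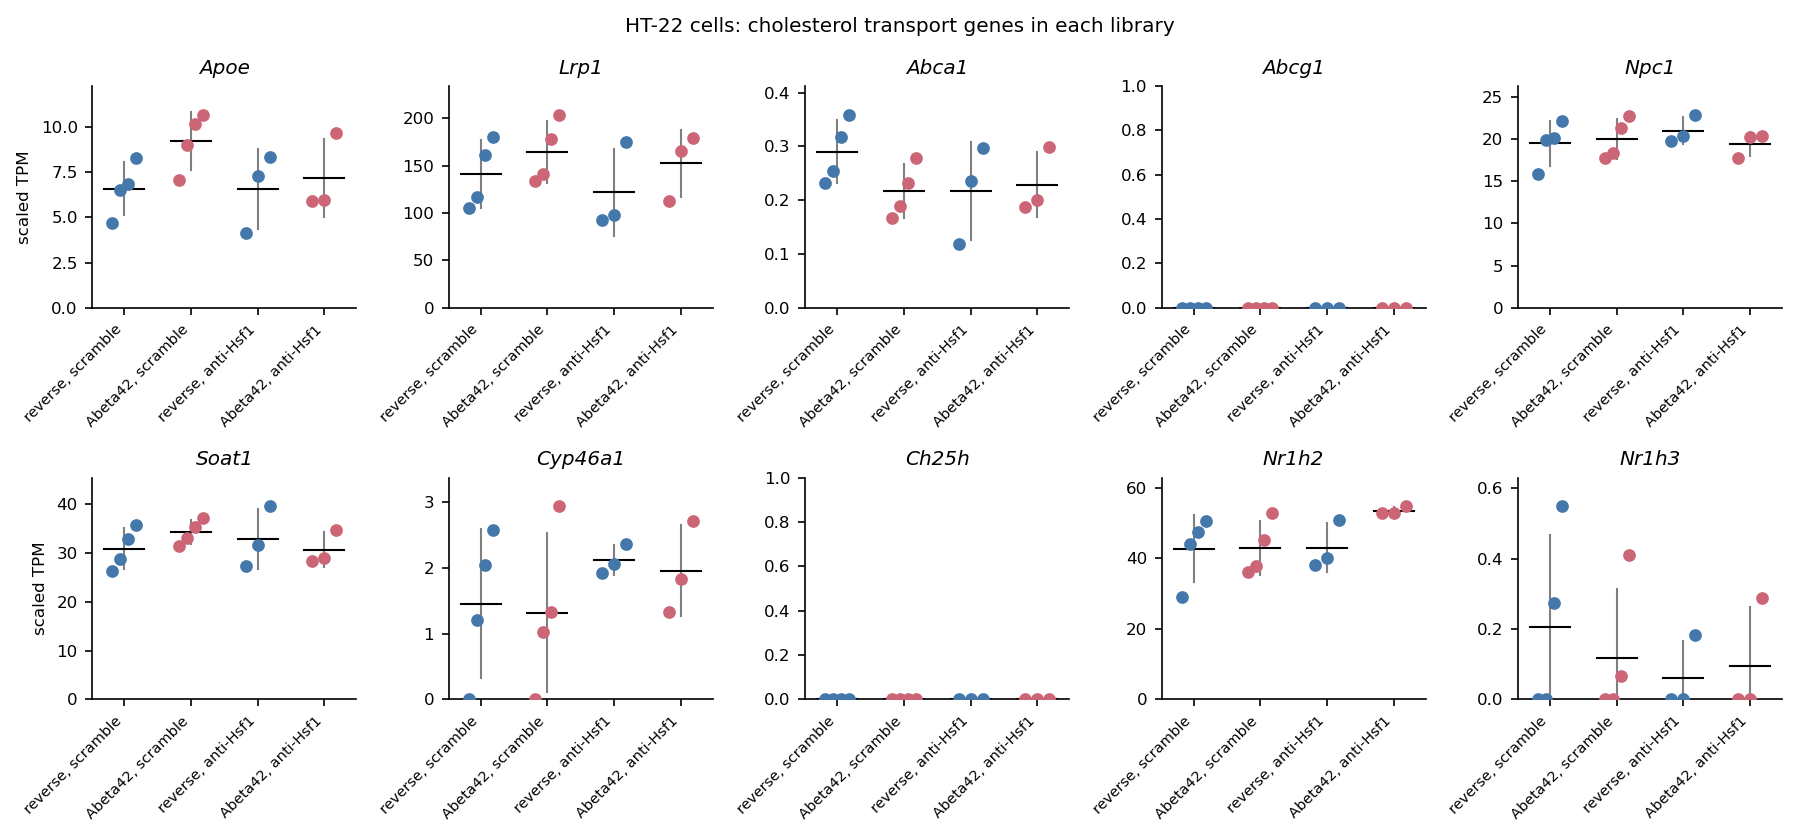
Scaled TPM (vertical axes, from 0) of the 10 genes in the 14 HT-22 libraries, by peptide and LNA; points are libraries, black bars group means and grey lines 1 SD. The 3 Abeta42 anti-Hsf1 libraries are the highest for Nr1h2, the 4 groups overlap for the other genes above 0, and Abcg1 and Ch25h are at 0 throughout.

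Neither the peptide nor the LNA separated these genes past the test. The 6 genes above the same minimum (Apoe, Lrp1, Nr1h2, Soat1, Npc1 and Cyp46a1) were tested among 17291. Abeta42 against the reverse peptide called 0 of 6 in scramble cells and 0 of 6 in anti-Hsf1 cells, where 0% of all genes were called in each. Anti-Hsf1 against scramble called 0 of 6 with the reverse peptide (0% of all genes) and 0 of 6 with Abeta42 (0.0231%). The peptide by LNA interaction called 0 of 6 (0%). At an unadjusted p below 0.05 none of the 6 was counted in any of these 5 comparisons, against 866, 794, 628, 1555 and 899 of all genes. Leaving out the 3 libraries that stood apart also gave 0 in each. The 95% intervals of the 6 genes' log2 differences between peptides in scramble cells were widest for Cyp46a1 (-1.02 to 0.83) and narrowest for Npc1 (-0.22 to 0.30). That of Apoe ran from -0.06 to 0.94.

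Apoe was at 10.6, 7.04, 8.97 and 10.2 scaled TPM with Abeta42 and scramble and at 6.52, 4.67, 6.85 and 8.27 with the reverse peptide and scramble. The first group was the higher in mean, but the ranges overlapped. The difference was 0.44 on the log2 scale (SE 0.23, 95% interval -0.06 to 0.94; limma adjusted p = 0.952). In anti-Hsf1 cells Apoe was at 9.63, 5.95 and 5.87 with Abeta42 and at 8.32, 4.10 and 7.27 with the reverse peptide, a difference of 0.12 (SE 0.27; adjusted p = 1.0). Anti-Hsf1 against scramble gave -0.34 with Abeta42 (SE 0.25; adjusted p = 0.618) and -0.03 with the reverse peptide (SE 0.25; adjusted p = 0.990). The interaction was -0.31 (SE 0.35; adjusted p = 1.0).

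Lrp1 was at 204, 134, 141 and 179 scaled TPM with Abeta42 and scramble, 162, 106, 181 and 118 with the reverse peptide and scramble, 165, 113 and 180 with Abeta42 and anti-Hsf1, and 175, 92.9 and 98.5 with the reverse peptide and anti-Hsf1. Each group held both low and high libraries. Nr1h2 was at 52.9, 54.7 and 53.0 with Abeta42 and anti-Hsf1 and at 45.1, 52.8, 37.8 and 36.3 with Abeta42 and scramble. With the reverse peptide it was at 50.95, 38.1 and 40.1 with anti-Hsf1 and 50.5, 47.4, 44.2 and 29.1 with scramble. Of the 6 genes tested, Nr1h2 was the 1 whose Abeta42 groups did not overlap (8.52% of all genes), and the 1 whose anti-Hsf1 groups did not overlap between peptides (18.3%). Its 2 Abeta42 groups lay close together, and the 3 Abeta42 anti-Hsf1 libraries were the highest of the 14. The difference was 0.33 (SE 0.18; unadjusted p = 0.0976, limma adjusted p = 0.570), and it was -0.38 on the deposited TPM. The 2 scramble libraries lowest in Nr1h2 here, replicates 3 and 4, are among those that stood apart, and with reverse scramble replicate 4 (29.1) they had the 3 lowest Nr1h2 values of the 14. The part of what sets those libraries apart was not tested. Soat1 spanned 26.2 to 39.5 and Npc1 15.8 to 22.9 over the 14 libraries. Cyp46a1 spanned 0 to 2.94, with 2 libraries listed at 0, 1 in each scramble group. Of 44 further sterol genes 29 were tested in HT-22 cells, and 0 were called in each of the 5 comparisons. Below an unadjusted 0.05 were 0, 1, 2, 4 and 2 of the 29, against 866, 794, 628, 1555 and 899 of all 17291 genes.

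Side by side, on the deposited TPM of each library, the 2 systems shared some of the 10 genes and not others. Apoe had a median of 366 in the hippocampus and 7.61 in HT-22 cells, 48.1 times lower, and Abca1 11.5 and 0.249, 46.1 times lower. Cyp46a1 had 41.7 and 1.62. Abcg1 had 23.6 in the hippocampus and Nr1h3 1.24, and both had a median of 0 in HT-22 cells. Ch25h had 0.317 in the hippocampus and was listed at 0 in HT-22 cells. For each of these 6 the lowest hippocampus library lay above the highest HT-22 library. Npc1 was similar in level, with medians of 22.6 and 20.9. Lrp1 (70.4 and 137) and Soat1 (13.4 and 33.5) were higher in HT-22 cells by 1.95 and 2.51 times with overlapping ranges, and Nr1h2 (15.7 and 46.1) by 2.94 times without overlap. The transcripts higher in HT-22 cells were thus those of the uptake receptor, the storage enzyme and LXR beta, and the lower ones those of the ligand, both exporters, both oxysterol enzymes and LXR alpha. Tissue and line were prepared and scaled as 2 experiments, so the difference was not tested.

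**Figure D5:**
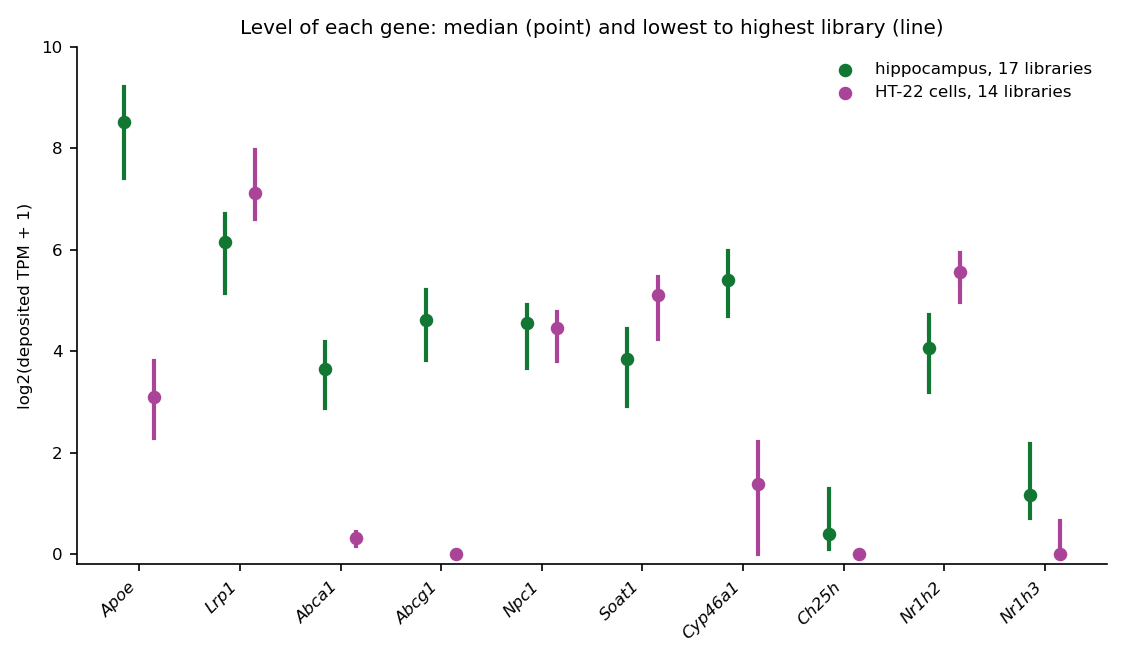
Level of each gene as log2(deposited TPM + 1) (vertical axis) in 17 hippocampus libraries (green) and 14 HT-22 libraries (purple); points are medians and lines run from the lowest to the highest library. Apoe, Abca1, Abcg1, Cyp46a1, Ch25h and Nr1h3 lie lower in HT-22 cells without overlap, Nr1h2 lies higher, and Npc1 is at a similar level in both.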

How the data were processed

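RNA of 17 mouse hippocampus and 14 HT-22 long-RNA libraries was ribosome-depleted, fragmented and prepared with a NEBNext Ultra kit, per the labels' protocols. The deposited tables give coverage, FPKM and TPM per gene from the authors. The authors' TPM sum to 999823 to 999917 in each library. The submitters' processing notes name HISAT2 2.1.0, StringTie 1.3.4d and mm10, without roles. No source used here states the strand setting of the counting. TPM was divided by a median-of-ratios factor (17141 genes in hippocampus, 15757 in HT-22) within each system. The log2(scaled TPM + 1) was fitted by limma 3.58.1 (trend, robust) with 1 fit per system, for genes averaging at least 1 TPM, Benjamini-Hochberg threshold 0.05. The code was tested on simulated data. Named genes were all 10 genes, up to 4 called genes per direction of the wider list, and 5 genes by likeness each. Members and lists were chosen with earlier results of these data known. The short-RNA tables were not used here. Fits were repeated on deposited TPM, with upper quartile scaling, pseudocount 0.1, other filters, array weights, a replicate block, only the groups compared, and each library left out. Depth in reads is not given by these tables, so precision rests on coverage and replicate spread. R 4.3.3 and Python 3.11.15 were used.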

Additional observations from a re-analysis of the deposited data

Results flagged for a closer look

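Nr1h3 in the HT-22 libraries given Abeta42 and scramble was at 0.409 scaled TPM in replicate 4 and at most 0.0655 in the other 3, a gap of 0.84 of the whole range. Of 16 sets of 4 values compared in this way, each 1 gene in 1 scramble group, it was the only one past the limit for a single distant value. Chance alone passes about 1 in 20. Replicates 1 and 2 were at 0. Replicate 4 is one of the libraries that stood apart, and Nr1h3 was below the mean of 1 TPM needed for a test.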

How the results depend on the processing

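The counts of called genes held at 0 in 188 repeats and moved in 9. On deposited TPM 7 of the 9 tested genes were called between APP and WT at 6 months. There the median of all genes shifted by 0.60, and 10339 of 17840 genes were called. Of the 6 genes tested in HT-22 cells, 2 were called between peptides in anti-Hsf1 cells (Npc1 and Soat1). Between anti-Hsf1 and scramble with Abeta42 4 were called (Apoe, Lrp1, Npc1 and Soat1), and 2 in the interaction (Npc1 and Soat1). The all-gene medians of the last 3 comparisons were -0.522, -0.622 and -0.676. Of 17291 genes 4197, 8766 and 4379 were called in them, of which 4190, 8740 and 4369 were negative. With array weights 1 was called at 12 months (Abca1), 1 in APP mice at 12 against 3 months (Abca1) and 1 at 12 against 6 months (Apoe). Of 17840 genes 151, 731 and 250 were called in these fits. At 12 against 3 months 1 was called without a filter (Ch25h; 451 of 35961 genes) and 1 with only those groups (Apoe; 134 of 17838 genes).

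Signs reversed for Apoe at 3 months to -0.167 on deposited TPM, -0.0346 with array weights and -0.0872 without the libraries that stood apart; single libraries left out gave -0.0872 to 0.0921. Deposited TPM also reversed Apoe at 6 months (0.159), Abca1 in APP mice at 12 against 6 months (-0.0735) and by genotype and age (-0.357), Apoe between peptides in anti-Hsf1 cells (-0.384) and Nr1h2 with Abeta42 (-0.381). Apoe for anti-Hsf1 with the reverse peptide became 0.00307 on deposited TPM, 0.00586 with upper quartile scaling, 0.0493 with the replicate block and 0.0775 without the libraries that stood apart. Leaving out single libraries gave -0.201 to 0.234 for it, -0.138 to 0.297 for Apoe between peptides in anti-Hsf1 cells, -0.238 to 0.579 for Apoe in WT at 12 against 6 months and -0.0214 to 0.145 for Abca1 there. The cause was not tested. In the wider list 53 repeats lost a call.

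Replicate numbers did not pair the samples: same-numbered libraries correlated at -0.146 to 0.228 in the hippocampus and -0.216 to 0.575 in HT-22 cells, and 5 of 17 and 2 of 14 libraries correlated best with their own number. With the replicate block 0 of the 10 genes were called in any comparison. Over all genes, counts called moved with the groups fitted: with only the groups compared 54 became 4 at 3 months, 297 became 37 at 6 months, 585 became 134 at 12 against 3 months and 96 became 1 at 12 against 6 months. With array weights 79 became 151 at 12 months and 4 became 1825 for anti-Hsf1 with Abeta42. On deposited TPM 297 became 10339 at 6 months. Where 1 WT library was left at 3 months, it was assumed to vary like the other groups.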
